A study of Homo sapiens with 9 samples.

Results

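The genes described here are the protein-coding genes of HCT116 cells with more mRNA under the A20-KO label than in WT and nearly the same amount in A20-OE. They were chosen by the measured values themselves. A gene had to reach a mean of at least 1 FPKM (fragments counted per kilobase of a gene after scaling for library size) in one group, and its ratio of group means, (KO + 0.1)/(WT + 0.1), had to be at least 2. Of (OE + 0.1) and (KO + 0.1) the lower had to be at least 0.8 of the higher, and every WT value had to be below every KO and every OE value. Of 19951 protein-coding genes in the table, 11337 reached 1 FPKM in a group and 297 met the whole rule. KO/WT and OE/KO below stand for the ratios of group means with 0.1 added, and KO always means the libraries labelled A20-KO.

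HCT116 is an established human colorectal carcinoma line. RNA was sequenced from WT cells, from A20-KO cells, and from A20-OE cells, with 3 libraries per group. The Methods describe a guide RNA against A20 in a lentiviral CRISPR vector with puromycin selection, and an A20 overexpression plasmid with a CMV promoter, without saying how the overexpressing cells that were sequenced were made. They name the sequenced groups as WT, A20 knockout, and a rescue of the knockout, and the group labelled A20-OE is taken here to be that rescue. If so, A20-KO and A20-OE cells share the steps that made the knockout, and a difference of both from WT cannot be told apart from that shared history. The labels do not say whether the cells were 1 clone or whether the 3 libraries of a group came from separate cultures, so any p-value measures the spread between these libraries only.

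A20 is a ubiquitin-editing enzyme encoded by TNFAIP3 that switches off NF-κB signalling, and TNFAIP3 is itself an NF-κB target. TNFAIP3 was measured at 0.869, 0.80, and 0.736 FPKM in the 3 WT libraries, at 1.93, 2.16, and 1.04 under the A20-KO label, and at 58.7, 66.5, and 56.5 in A20-OE. The A20-KO label was thus not matched by a lower TNFAIP3 mRNA (limma log2 fold change 0.95, SE 0.23, Benjamini-Hochberg adjusted p = 0.0182). The mRNA level does not report the protein. The paper shows A20 expression for its knockout and rescue cells in a figure, which was not read here. A gene of the set is therefore one whose level in OE was close to that in KO while TNFAIP3 itself was 33.6 times as high on the OE/KO ratio.

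KRT13, a keratin of stratified epithelium, and RAPGEF3, which encodes the cAMP sensor EPAC1, were named as markers of this pattern, but neither met the rule. KRT13 was at 0.595, 0.481, and 0.481 FPKM in WT, at 13.8, 12.7, and 13.4 in KO, and at 19.9, 19.0, and 23.4 in A20-OE. RAPGEF3 was at 0.113, 0.142, and 0.106 FPKM in WT, at 3.80, 3.53, and 4.02 in KO, and at 2.53, 2.54, and 2.74 in A20-OE. Both stood far above WT in KO, with KO/WT of 21.7 and 17.6, but the OE/KO of 1.56 for KRT13 and 0.696 for RAPGEF3 lay outside the band.

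The recovered reads ran from 23406222 to 24963691 per library. Epithelial genes were abundant in all groups, with EPCAM at 129.6, 116.6, and 105.2 FPKM in WT, KO, and OE, and of the intestinal genes CA2 was at 21.6, 16.2, and 12.4 FPKM and the transcription factor CDX2 at 5.73, 5.56, and 5.88. FABP1, VIL1, and CEACAM5, also intestinal, were at 0 or under 0.06 FPKM in every library. The 20 leukocyte markers examined summed to 1.83 to 3.05 FPKM per library, with CD3D at 0 and PTPRC at 0.022 FPKM or less throughout. The libraries differed in how their values followed the GC content of transcripts. Across the 11330 genes with a GC value, the Pearson correlation between GC content and a library's deviation from the mean of all libraries was -0.63, -0.21, and 0.11 in WT, 0.43, 0.21, and 0.59 in KO, and 0.05, -0.12, and 0.13 in OE. WT replicate 1 and KO replicate 3 stood apart in opposite directions. The groups of genes below are therefore given with the number or names of those that met the rule again after a GC content correction and without these 2 libraries, and the part of GC content in the result was not tested. In such bulk RNA, fewer cells of a type and less RNA per cell cannot be told apart.

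JUNB is a subunit of the AP-1 transcription factor, ID1 is a BMP-responsive inhibitor of basic helix-loop-helix factors, SAT1 is the acetyltransferase that starts polyamine breakdown, and NFKBIA encodes the NF-κB inhibitor IκBα. The 150 bases before the RefSeq start of these genes (build GRCh38.p14) are shown as examples of promoters of genes of the set with different roles, 5′ to 3′ on the coding strand. JUNB lies at chr19:12791336-12791485 on the plus strand, ID1 at chr20:31605139-31605288 on the plus strand, SAT1 at chrX:23783023-23783172 on the plus strand, and NFKBIA at chr14:35404750-35404899 on the minus strand. Capitals mark matches on either strand to 6 motifs.
JUNB: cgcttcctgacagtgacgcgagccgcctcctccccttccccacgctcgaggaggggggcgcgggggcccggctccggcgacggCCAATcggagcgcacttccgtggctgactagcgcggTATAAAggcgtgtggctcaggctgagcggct
ID1: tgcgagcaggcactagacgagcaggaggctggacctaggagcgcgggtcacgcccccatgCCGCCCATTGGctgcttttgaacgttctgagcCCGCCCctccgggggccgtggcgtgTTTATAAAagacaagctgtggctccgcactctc
SAT1: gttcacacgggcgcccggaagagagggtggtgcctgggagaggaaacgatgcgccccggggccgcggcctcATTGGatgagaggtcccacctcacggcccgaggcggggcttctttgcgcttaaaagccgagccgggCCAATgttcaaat
NFKBIA: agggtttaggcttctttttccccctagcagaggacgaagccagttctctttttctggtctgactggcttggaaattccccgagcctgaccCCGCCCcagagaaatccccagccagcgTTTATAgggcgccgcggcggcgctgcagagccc
Of the same windows of all 35116 promoters in the table, 6.71% held TATAAA, the letters of the TATA box. The letters CCAAT, bound by NF-Y, were in 23.5% of them, and GGGCGG, the GC box, in 36.8%. The AP-1 letters TGACTCA were in 2.89%. The cAMP response element, TGACGTCA, was in 1.40%, and the E-box, CACGTG, in 4.57%. JUNB, ID1, and NFKBIA held a TATA match, JUNB, ID1, and SAT1 a CCAAT match, and ID1 and NFKBIA a GC box match. In ID1 the TATA match reads on both strands over overlapping letters, and its CCAAT match directly follows a GC box match. None of the 4 windows held the AP-1, cAMP response element or E-box letters. A RefSeq promoter was matched for 71.0% of the set, so promoter features were not compared between the set and other genes.

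The set was dominated by moderate differences. The median KO/WT of the 297 genes was 2.44 and the range 2.0 to 11.1, with 162 genes under 2.5, 67 at 3 or more, and 26 at 4 or more. The median OE/KO was 0.972, against 0.971 over all 11337 genes that could have been chosen. OE was below KO in 173 genes and above it in 124, and the means were within 10% of each other in 147. As medians over the set, log2 values relative to the WT mean were 1.29, 1.22, and 1.46 in the 3 KO libraries and 1.34, 1.27, and 1.38 in A20-OE, against -0.24, 0.06, and 0.19 in WT. WT replicate 1 was the lowest WT library for 212 of the 297 genes, and KO replicate 3 the highest KO library for 208. The median coefficient of variation of the set was 21.3% in WT, 12.9% in KO, and 9.25% in OE, and over all 11337 genes it was 14.2%, 11.1%, and 8.15%.

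**Figure D1:**
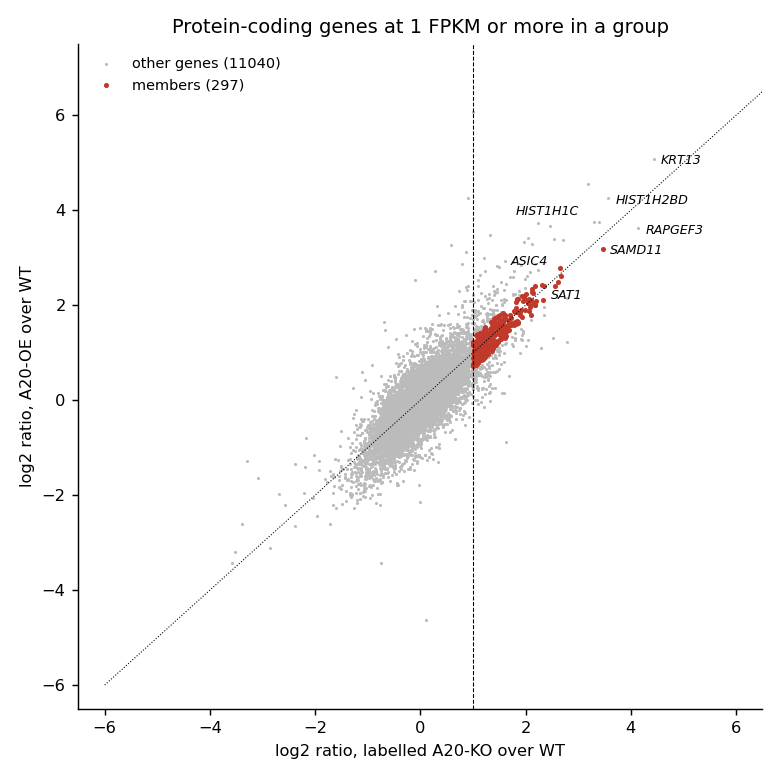
Log2 ratio of group means (FPKM + 0.1) in the libraries labelled A20-KO over WT (x) and in A20-OE over WT (y) for 11337 protein-coding genes at 1 FPKM or more in a group; the dotted line is equality and the dashed line a 2-fold difference. The 297 genes of the set (red) lie along the dotted line beyond 2-fold by construction, from just past 1 to 3.47 on the x axis, while KRT13 lies above it and RAPGEF3 below it.

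The same 9 libraries were used to choose the genes, so counts of called genes in the set carry no information of their own. With limma on log2(FPKM + 0.1) over 21636 genes where a call needed an adjusted p-value under 0.05 together with a log2 difference of more than 1 in size, 294 of the 297 were called higher in KO than in WT, where 4.91% of all genes tested were called higher and 2.08% lower. In OE against WT, 250 were called higher (7.68% of all genes higher, 4.21% lower). In OE against KO the rule itself keeps every gene of the set short of the fold threshold (1.56% of all genes higher, 0.832% lower). The 2 comparisons with WT share the WT libraries and the 2 comparisons with KO share the KO libraries.

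The rule was then applied to 6 libraries at a time, and the 3 libraries of one replicate number were read afterwards. Replicate number 1 was left out first, and 236 genes were chosen on the other libraries. In the unused libraries, 198 of these were at least 2-fold higher in KO than in WT, where 10.0% of all eligible genes were. With replicate number 2 left out, 182 of 330 chosen genes were at least 2-fold higher in the unused KO library, against 3.83% of all eligible genes. With replicate number 3 left out, the count was 225 of 331, against 4.68%. The direction was KO above WT for 235 of 236, 330 of 330, and 329 of 331 chosen genes. For direction alone, the share of all eligible genes was not counted, so these direction counts have no background to be read against. Of the chosen genes, 204, 261, and 251 also belonged to the set. The rule for the set used every library and required every WT value to be below every KO value. OE/KO in the unused libraries lay in the band of the rule for 75%, 78.2%, and 67.1% of the chosen genes, against 62.7%, 61.6%, and 53.7% of all eligible genes. At the 2-fold of the rule, the higher level over WT was thus seen in the unused libraries for 83.9%, 55.2%, and 68.0% of the chosen genes. Near equality of OE and KO was seen only somewhat more often than in other genes. The unused libraries belong to the same 3 groups and also differ in how they follow GC content, so these counts describe the libraries and are not a replication.

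Many of the largest KO/WT ratios belonged to genes at low levels in WT, with SAT1, HIST1H2BK, SCG2, and PRF1 as exceptions. SAMD11, a gene for a sterile alpha motif protein, had the highest ratio of the set. It was at 0.503, 1.21, and 1.31 FPKM in WT, at 11.5, 11.3, and 13.7 in KO, and at 10.7, 9.36, and 9.99 in OE, so that KO/WT was 11.1. Next was ASIC4, of the acid-sensing ion channel family, at 0.123, 0.328, and 0.282 FPKM in WT, 2.14, 1.90, and 2.27 in KO, and 2.01, 1.90, and 2.11 in OE. DES encodes desmin, the intermediate filament of muscle, and was at 0.589, 0.958, and 1.18 FPKM in WT, 6.18, 5.32, and 6.90 in KO, and 5.50, 5.15, and 6.16 in OE. In these 3 genes WT replicate 1 was the lowest WT library, and each met the rule again after the GC correction and without WT replicate 1 and KO replicate 3. The corrected KO/WT were 8.39 for SAMD11, 5.52 for ASIC4, and 4.92 for DES.

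The other 17 of the 20 largest ratios were between 4.25 and 6.28. They were HIST1H3E (6.28), AOC1 (5.89), UPK2 (5.07), NTN5 (5.05), SAT1 (4.97), KRT20 (4.57), ENTPD8 (4.55), HIST1H2BK (4.55), AC004233.2 (4.54), SCG2 (4.44), HGFAC (4.41), C1QTNF12 (4.40), ABCC3 (4.35), DRD4 (4.34), EBF4 (4.29), RBBP8NL (4.29), and PRF1 (4.25). UPK2 encodes a uroplakin of the urothelial surface, NTN5 a netrin, ENTPD8 an ectonucleotidase, ABCC3 an organic anion exporter and DRD4 a dopamine receptor. UPK2 was at 0.0728, 0.253, and 0.217 FPKM in WT and had as few as 2 reads in a library, and DRD4 had a wide WT range of 0.545 to 2.19 FPKM. AC004233.2, C1QTNF12, ABCC3, and DRD4 no longer met the rule after the GC correction, although their corrected KO/WT were still 3.99, 2.93, 4.17, and 3.03.

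At the other end of the scale, the 12 genes of the set with the highest level in KO were S100A6, KRT19, ID1, SAT1, S100A14, JUND, ID3, JUNB, ITGA3, CLDN4, HIST1H2BK, and COL6A1. S100A6, a calcium-binding protein, was at 193, 465, and 502 FPKM in WT, at 883, 784, and 1138 in KO, and at 956, 866, and 1037 in OE. WT replicate 1 was far below the other WT libraries there, and S100A6 no longer met the rule without WT replicate 1 and KO replicate 3. KRT19, a keratin of simple epithelium, was at 376, 395, and 530 FPKM in WT, 832, 759, and 1042 in KO, and 895, 775, and 1037 in OE. Only 13 genes of the set had a KO mean over 50 FPKM, and 151 had one under 5.

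Polyamines are small cations that growing cells make from ornithine, and their level is set by synthesis, through ODC1, and by breakdown, through SAT1. SAT1 was at 68.8, 62.4, and 63.6 FPKM in WT, at 312, 295, and 362 in KO, and at 350, 317, and 382 in OE. AOC1, the diamine oxidase that degrades putrescine and histamine, was at 0.200, 0.115, and 0.157 FPKM in WT, 1.22, 1.18, and 1.85 in KO, and 1.06, 1.15, and 1.57 in OE. Both met the rule again after the GC correction and without the 2 libraries that stood apart, and the ratio of SAT1 went up from 4.97 to 5.93 with the correction, its transcript having a GC content of 43.3%. Among 13 polyamine enzymes and regulators at 1 FPKM or more, a group named after values were seen, only these 2 belonged to the set. ODC1, the rate-limiting enzyme of synthesis, was at 190.9, 175.2, and 184.8 FPKM in WT, 88.3, 83.2, and 79.7 in KO, and 66.4, 62.5, and 70.6 in OE. ODC1 fell by 1.13 on the log2 scale in KO against WT (SE 0.0906, limma, Benjamini-Hochberg adjusted p = 0.000164). SRM, the spermidine synthase, had a log2 fold change of -0.97 (SE 0.19, limma adjusted p = 0.00643), short of the fold threshold, and -1.41 with the GC correction.

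Histones package DNA, and most of their genes lie in clusters and are transcribed for replication. Replication-dependent histone mRNAs mostly lack a poly(A) tail, and the libraries were made from poly(A)-selected RNA, so the values refer to the captured fraction. Of the 19 histone genes named HIST at 1 FPKM or more, 7 were in the set. They were HIST1H3E, HIST1H2BK, HIST2H2BE, HIST1H3H, HIST1H4I, HIST3H2A, and HIST1H2BJ. Histone genes with other names were not counted. HIST1H3E was at 0.872, 0.448, and 0.493 FPKM in WT, 4.58, 4.10, and 4.29 in KO, and 4.66, 4.51, and 4.99 in OE. HIST1H2BK, the most abundant of them, was at 13.6, 19.5, and 19.9 FPKM in WT, 79.6, 77.0, and 86.0 in KO, and 71.1, 64.3, and 77.7 in OE. The median KO/WT of the 7 was 3.09 and their median GC content 49.1%, low for the set. All 7 met the rule again after the GC correction and all 7 without WT replicate 1 and KO replicate 3.

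Other histone genes were higher still but were kept out by the OE/KO band. HIST1H2BD was at 2.68, 3.63, and 3.90 FPKM in WT, 40.8, 37.1, and 46.3 in KO, and 69.0, 59.6, and 71.3 in OE. Its log2 fold change in KO against WT was 3.58 (SE 0.15, limma adjusted p = 9.13e-06). HIST1H1C, a linker histone, had a log2 fold change of 3.38 (SE 0.18, limma adjusted p = 2.42e-05), and HIST1H2AC one of 2.72 (SE 0.14, limma adjusted p = 2.42e-05). Of 40 genes named HIST that were tested, limma called 17 higher in KO against WT and 0 lower, with 4.91% of all genes tested called higher. At an unadjusted p under 0.05 21 were higher and 0 lower, and limma-voom called 16 higher and 0 lower. The group was named after its values were seen, and histone genes are near-identical copies between which the counting could split reads.

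**Figure D2:**
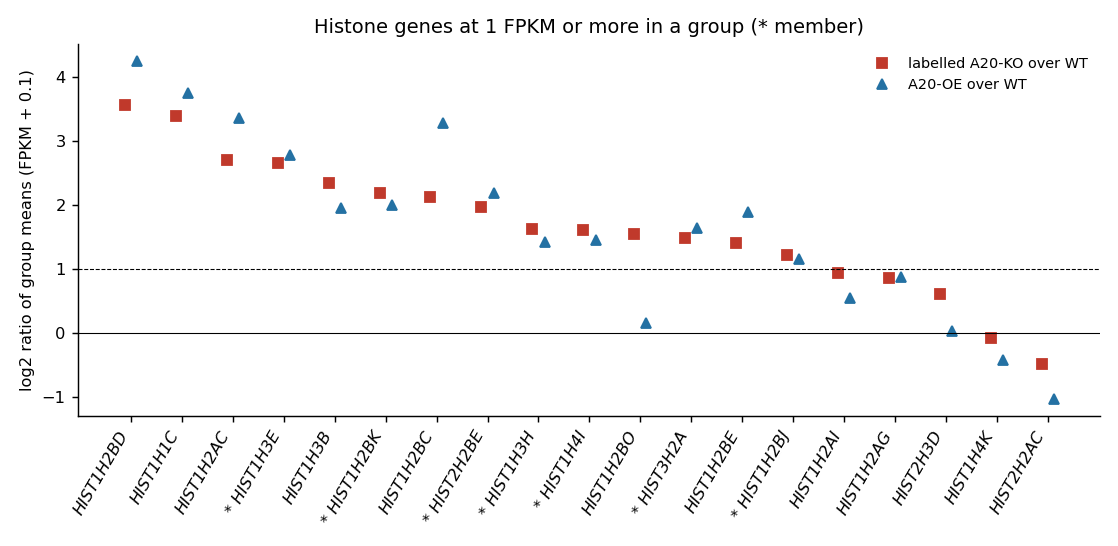
Log2 ratio of group means (FPKM + 0.1) over WT for the 19 histone genes named HIST at 1 FPKM or more in a group. Squares are the libraries labelled A20-KO and triangles A20-OE. The solid line is equality with WT, the dashed line 2-fold, and an asterisk marks the 7 genes of the set. In 17 of the 19 the KO mean was above WT, and the 7 of the set have squares and triangles at nearly the same height.

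Immediate early genes are switched on within minutes by growth factors and stress, without new protein synthesis, and include the FOS and JUN subunits of AP-1. A group of 10 such genes and regulators was in the set, with KO/WT from 2.0 to 3.58. JUNB was at 26.8, 34.2, and 41.2 FPKM in WT, 118, 110, and 139 in KO, and 113, 97.3, and 114 in OE. FOS was at 2.65, 3.36, and 3.57 FPKM in WT, 9.30, 7.41, and 7.99 in KO, and 7.61, 9.30, and 8.80 in OE. The set also held FOSL2 (KO/WT 2.14) and JUND (2.0), which makes 4 of the 7 genes of the family. JUN, FOSB, and FOSL1 were not among them. JUN was at 7.76 FPKM in WT and 9.74 in KO, FOSB had a KO/WT of 1.19, and FOSL1 had a log2 fold change of -0.73 in KO against WT (SE 0.21, limma adjusted p = 0.0338). The KO mean was above WT in 6 of the 7, and FOSL1, below WT, was short of the fold threshold. By limma 4 of the 7 were called higher (against 4.91% of all genes tested) and 0 lower (against 2.08% of all). The remaining members of the group were ZFP36, which encodes an mRNA-destabilising protein, NAB2, a corepressor of EGR factors, BHLHE40, PLAUR, BCL3, and NFKBIA. After the GC correction 5 of the 10 met the rule (JUNB, FOS, ZFP36, BHLHE40, and NFKBIA), and without the 2 libraries that stood apart also 5.

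A20 restrains NF-κB, a transcription factor held in the cytoplasm by IκBα, so the NF-κB targets of the set are of interest. NFKBIA was at 6.82, 8.97, and 10.7 FPKM in WT, 18.2, 17.0, and 18.3 in KO, and 20.2, 18.3, and 23.6 in OE. BCL3, an IκB family member that acts in the nucleus, was at 3.60, 4.44, and 5.90 FPKM in WT, 11.1, 10.4, and 13.2 in KO, and 10.2, 9.36, and 11.1 in OE. Among 22 NF-κB targets tested, these 2 were the only ones called higher in KO against WT (against 4.91% of all genes tested), 1 was called lower (against 2.08% of all), and the median log2 fold change was 0.15, against -0.01 over all genes tested. The gene called lower was ICAM1, an adhesion molecule for leukocytes, with a log2 fold change of -1.52 (SE 0.19, limma adjusted p = 0.000931). In OE against WT, 4 of the 22 were called higher (against 7.68% of all genes tested) and 3 lower (against 4.21% of all). TNFAIP3, the gene that the A20-OE label itself names, was among the 4. Those called lower were ICAM1, CXCL8, and NFKB1. NFKBIA had a ratio at the edge of the rule and did not meet it without WT replicate 1 and KO replicate 3, and BCL3 did not meet it after the GC correction.

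BMP, Wnt, and Notch are ligand-driven pathways that pattern the intestinal epithelium, and 12 of their ligands, inhibitors, receptors, and targets were in the set. Among targets, ID1 was at 349, 275, and 342 FPKM in WT, 678, 635, and 907 in KO, and 676, 609, and 830 in OE. ID3, of the same family, was at 40.2, 41.2, and 51.5 FPKM in WT, 150, 130, and 174 in KO, and 134, 114, and 151 in OE. ID2, the third ID gene at 1 FPKM or more, was higher again in OE, at 37.5 FPKM in WT, 67.0 in KO, and 135.6 in OE, so it was outside the band. The secreted BMP inhibitors NOG and CHRD had KO/WT of 2.07 and 2.35. NOTUM, an enzyme that inactivates Wnt ligands, was at 6.94, 10.6, and 11.8 FPKM in WT, 37.2, 32.3, and 39.6 in KO, and 35.2, 30.5, and 36.6 in OE. The Wnt ligands WNT4 and WNT6 had KO/WT of 3.22 and 2.88 at KO means of 1.08 and 5.20 FPKM. On the Notch side were NOTCH3 (2.76), the ligand-like DNER (3.93), and the repressor HES7 (3.28). The group thus held activators and inhibitors of the same pathways. It was drawn from the set alone, and the other genes of these pathways were not counted. Such genes went both ways, with a log2 KO/WT of -1.05 for AXIN2, -0.62 for BMP7, and 1.07 for BMP4. After the GC correction 6 of the 12 met the rule, and 10 did so without the 2 libraries that stood apart.

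Epithelial genes of the set numbered 12. KRT20, a keratin of the differentiated colonocyte, was at 0.698, 0.867, and 0.780 FPKM in WT, 3.79, 4.23, and 3.77 in KO, and 3.52, 3.67, and 3.68 in OE. Its transcript had a GC content of 45.7% and it met the rule under both checks. CLDN4, a tight junction claudin, was at 28.2, 34.8, and 45.6 FPKM in WT, 86.1, 78.3, and 91.9 in KO, and 106, 93.9, and 111 in OE. The scaffold TJP3 (KO/WT 3.30), the actin-severing gelsolin GSN (2.48), the lectin LGALS3 (2.33), the brush border protein USH1C (2.27), the repressor OVOL1 (2.15), and the protease KLK7 (2.15) were among the others. KRT19 and KRT20 were the 2 of 16 keratins at 1 FPKM or more that were in the set. The KO mean was above WT in 15 of the 16, with a median KO/WT of 1.81. Of 28 keratins tested, limma called 6 higher in KO against WT (against 4.91% of all genes tested) and 1 lower (against 2.08% of all). KRT13, KRT7, and KRT15 had KO/WT of 21.7, 2.32, and 2.14 but an OE/KO above the band, and KRT8 and KRT18 had KO/WT of 1.43 and 1.34. After the GC correction 7 of the 12 epithelial genes met the rule, and 6 did so without the 2 libraries.

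Lists of differentiation genes placed these in context. Of 29 genes of stratified epithelial differentiation tested, 12 were called higher in KO against WT (against 4.91% of all genes tested) and 2 lower (against 2.08% of all), with a median log2 fold change of 0.87, and KLK7, OVOL1, and S100A14 of them were in the set. In OE against WT 15 were called higher (against 7.68% of all) and 1 lower (against 4.21% of all). KRT14 and KRT16, basal and stress keratins, were called in OE against WT and not in KO against WT, at 4.26 (SE 0.22, limma adjusted p = 5.95e-06) and 3.12 (SE 0.23, limma adjusted p = 3.22e-05) on the log2 scale. Of 10 genes of colonic epithelium tested, KRT19 and KRT20 were called higher in KO and HNF4A, a transcription factor of the gut, was called lower at -1.63 (SE 0.21, limma adjusted p = 0.001).

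Matrix proteins and their receptors accounted for 16 genes, with a median KO/WT of 2.62. COL7A1, the anchoring fibril collagen, was at 1.08, 1.62, and 1.53 FPKM in WT, 5.51, 5.04, and 6.01 in KO, and 5.29, 5.31, and 5.61 in OE. COL1A1, of fibrillar collagen I, was at 4.55, 5.80, and 5.60 FPKM in WT, 12.4, 12.6, and 14.9 in KO, and 12.2, 11.0, and 12.1 in OE. COL11A2 (KO/WT 4.16) and COL6A1 (2.11) were the other collagens, and 4 of 15 collagens at 1 FPKM or more were in the set. The laminin receptors ITGA3 and BCAM and the laminin chain LAMA5 were there together. ITGA3 was at 33.5, 40.6, and 44.6 FPKM in WT, 92.0, 92.2, and 89.4 in KO, and 90.0, 88.0, and 91.7 in OE. The elastic fibre genes FBLN5 and EFEMP2 had KO/WT of 2.37 and 3.63. The GC content of the 4 collagens of the set was 61.1% to 64.8%, and 7 of the 16 matrix genes met the rule after the GC correction, against 11 without the 2 libraries.

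The mesenchymal list moved unevenly. Of 13 such genes tested, 3 were called higher in KO against WT (against 4.91% of all genes tested) and 1 lower (against 2.08% of all). COL1A1 and COL6A1 of the set were among the 3, and S100A4 was the third, at 1.77 (SE 0.16, limma adjusted p = 0.000255). The gene called lower was TWIST1, a transcription factor of mesenchymal cells, with a log2 fold change of -2.82 (SE 0.35, limma adjusted p = 0.000885).

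S100 proteins are small calcium-binding proteins encoded in a cluster on chromosome 1. Those in the set were S100A6, S100A14, S100A13, and S100A3, 4 of 11 genes whose names begin with S100 at 1 FPKM or more. S100A14 was at 65.5, 88.7, and 100.3 FPKM in WT, 211, 204, and 260 in KO, and 266, 250, and 305 in OE. S100A4, in the same cluster, had the highest KO/WT of the 11 (3.46) but an OE/KO of 0.712. Of the 4, S100A6 and S100A13 met the rule after the GC correction, and none met it without WT replicate 1 and KO replicate 3.

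Genes known from immune cells made up 14 of the set, in cells whose leukocyte markers were at or near 0. PRF1, the pore-forming protein of cytotoxic granules, was at 4.10, 5.92, and 6.90 FPKM in WT, 25.6, 22.2, and 25.1 in KO, and 22.8, 19.96, and 23.9 in OE. HLA-DRA, of the class II antigen-presenting molecules, was at 2.96, 3.13, and 4.12 FPKM in WT, 10.6, 10.1, and 10.7 in KO, and 9.49, 8.97, and 10.5 in OE. Both met the rule under both checks. CD70, a ligand of the TNF family, had a KO/WT of 4.0, the class I gene HLA-F one of 2.85, GSDMB, of the gasdermins, 2.61, and the cytokine genes EBI3 and IL11 2.70 and 2.36. The interferon-stimulated genes of the set were IFITM1 (3.54), BST2 (2.33), and IFI27 (2.01), all with KO means under 2 FPKM, and IFITM1 shares 32.5% of its exon bases with IFITM2 on the same strand. Of 28 interferon-stimulated genes tested, limma called 3 higher in KO against WT (against 4.91% of all genes tested), IFITM1, BST2, and IFI6, and IFI27 fell just short of the fold threshold (log2 fold change 0.998). By limma 0 of the 28 were called lower (against 2.08% of all). At an unadjusted p under 0.05 10 were higher and 3 lower, and limma-voom called 4 higher and 0 lower. After the GC correction 8 of the 14 immune genes met the rule, and 9 did so without WT replicate 1 and KO replicate 3. No gene of the leukocyte list reached 1 FPKM in a group, and 1 of the 9 tested, GNLY, was called higher in KO against WT (0.0394 FPKM in WT, 0.258 in KO).

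Ion channels and transporters of ions and water accounted for 15 genes. ASIC4 and ASIC3, proton-gated sodium channels, were in the set, and ASIC3 was at 3.69, 3.47, and 3.77 FPKM in WT, 7.64, 6.93, and 9.76 in KO, and 7.08, 5.88, and 7.38 in OE. The T-type calcium channels CACNA1G and CACNA1H had KO/WT of 2.98 and 2.18. The TMC family, relatives of the hearing channel, contributed TMC4, TMC6, and TMC8, 3 of its 5 genes at 1 FPKM or more. TMC5 and TMC7 were lower in KO than in WT, with KO/WT of 0.707 and 0.809. ASIC1, also at 1 FPKM or more, had a KO/WT of 1.22 and was not in the set. The potassium channels KCNQ1 and KCND1 had KO/WT of 2.67 and 2.08. GC content was 60.5% at the median of this group, and 4 of the 15 met the rule after the GC correction and 6 without the 2 libraries.

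Neuroendocrine genes numbered 8 and were led by SCG2, a granin of secretory granules. SCG2 was at 5.07, 5.43, and 5.50 FPKM in WT, 23.5, 24.6, and 24.0 in KO, and 21.0, 21.3, and 23.4 in OE, and its KO/WT was 4.96 after the GC correction. SNCG, a synuclein, had a KO/WT of 3.60. The receptors DRD4 and OPRL1 and the peptide genes PYY, KISS1, INSL3, and UCN2 did not meet the rule after the GC correction, so that SCG2 and SNCG were the 2 that did, and 3 of the 8 met it without the 2 libraries that stood apart. Of 12 neuronal genes tested, limma called 4 higher in KO against WT (against 4.91% of all genes tested) and 0 lower (against 2.08% of all). At an unadjusted p under 0.05 6 were higher and 0 lower, and limma-voom called 4 higher and 0 lower. ENO2, the neuronal enolase, was higher again in OE, at 14.9 FPKM in WT, 41.4 in KO, and 76.4 in OE. L1CAM and SYN1 were the other 2 besides SCG2.

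Muscle genes of the set included, besides DES, the kinase SPEG, the calcium pump ATP2A1, the myosin MYH15, and the troponin TNNI3, with KO/WT from 2.06 for MYH15 to 2.5 for ATP2A1. After the GC correction DES, ATP2A1, and MYH15 met the rule, and without the 2 libraries these 3 and SPEG did. The 11 groups described hold 105 of the 297 genes, and the other 192 were not placed in a group. They include APOE, the cell cycle inhibitor CDKN1C, the chromatin organiser SATB1, and the apoptosis gene BMF. The groups were drawn up after the values were seen and were not tested as sets.

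Other lists held few genes of the set or none. No cAMP and EPAC gene was in it. Of 38 tested, limma called 2 higher in KO against WT, RAPGEF3 and RAPGEF4, and 0 lower, where 4.91% of all genes tested were called higher and 2.08% lower. At an unadjusted p under 0.05 8 were higher and 9 lower, limma-voom called 2 higher and 1 lower, and the median log2 fold change was -0.10. Of 26 p53 targets, 1 was called higher, GDF15, which was at 139.2 FPKM in WT, 348.3 in KO, and 137.8 in OE, and 1 lower, SPATA18. Of 8 cancer-testis antigens tested, limma called PAGE2 higher, at under 0.4 FPKM in each group mean, while limma-voom called 0.

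The genes just inside the threshold of 2 were JUND, ZFYVE19, S100A3, and NFKBIA, each with a KO/WT of 2.0. Just outside were TGM2, ACE, EPHA1, and TMEM120A, with 2.0, 1.99, 1.98, and 1.98. JUND was at 66.9, 96.7, and 135.8 FPKM in WT and at 184, 179, and 236 in KO, and EPHA1 was at 7.08, 8.65, and 9.87 in WT and at 17.1, 16.1, and 17.7 in KO, so the 2 sides did not differ in kind. Toward the edges of the band, the lowest OE/KO were those of CTSH (0.80), TMC6 (0.801), MXD4 (0.801), and CPT1C (0.806), and the highest those of PYY (1.249), C1orf210 (1.24), SCARF1 (1.24), and TMPRSS6 (1.24). CTSH, the cathepsin H protease, was at 2.96, 2.46, and 2.66 FPKM in WT, 5.82, 6.02, and 7.02 in KO, and 4.78, 4.76, and 5.49 in OE, with each OE library below each KO library. Beyond the band, 123 genes with WT below all other libraries had an OE/KO above the band and 100 one below it. The set of 297 is thus the middle of a continuum of 520 genes.

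Genes of the set had transcripts rich in GC, a property that the rule did not use. The median GC content of the longest annotated transcript was 59.9% in the set and 49.3% over the eligible genes. In the 123 genes with the opposite pattern, lower in KO and near equal in OE, it was 42.0%. Of the 297 genes, 173 (58.2%) fell in the 2 highest deciles of GC content, and 26 in the 5 lowest, where 104 of the 123 genes of the opposite pattern lay. The share of eligible genes that belonged to the set went from 0.0883% in the lowest decile to 8.47% in the highest. Over all eligible genes the median log2 KO/WT went from -0.30 in the lowest decile to 0.41 in the highest, and the median log2 OE/WT from -0.18 to 0.12. Members of the set were also shorter, with a median gene length of 3630 bases against 5033. The libraries differed in how they followed length too. The Pearson correlation of a library's deviation with log gene length was 0.21, 0.12, and -0.06 in WT. It was -0.18, 0.07, and -0.45 in KO, and 0.05, 0.25, and -0.13 in OE. The part of this in the shorter length of the set was not tested.

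**Figure D3:**
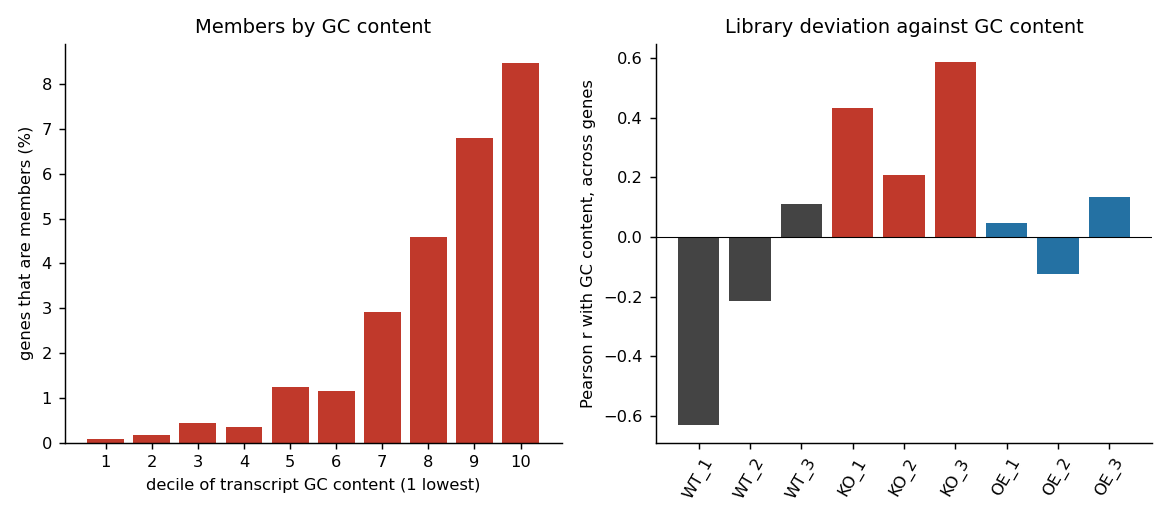
Left, the percentage of eligible genes that belong to the set in each decile of transcript GC content; right, the Pearson correlation across genes between GC content and each library's log2 deviation from the mean of the 9 libraries (grey WT, red labelled A20-KO, blue A20-OE). The share goes from 0.0883% to 8.47% from the lowest to the highest decile, and WT_1 (-0.63) and KO_3 (0.59) are the libraries farthest from 0.

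After each library was corrected for GC content in 50 bins, 139 of the 297 genes (46.8%) still met the whole rule. The median KO/WT of the 297 was then 2.09, the lowest was 1.34 (JUND), 175 were at 2 or more and 292 at 1.5 or more. Of the 158 genes that missed the rule, 116 had a deposited KO/WT under 2.5. Not all missed it on KO/WT, since more genes stayed at 2 or more than met the whole rule. Of the 67 genes with a deposited KO/WT of 3 or more, 54 met the rule after the correction and all 67 kept a KO/WT of at least 2. The rest of the 67 thus missed another part of the rule, such as the OE/KO band. The median OE/KO of the set was 1.1 after the correction. Without WT replicate 1 and KO replicate 3, 184 of the 297 met the rule. Both checks were chosen after seeing the data, and a correction by GC content would also remove a true difference between GC-rich and GC-poor genes.

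**Figure D4:**
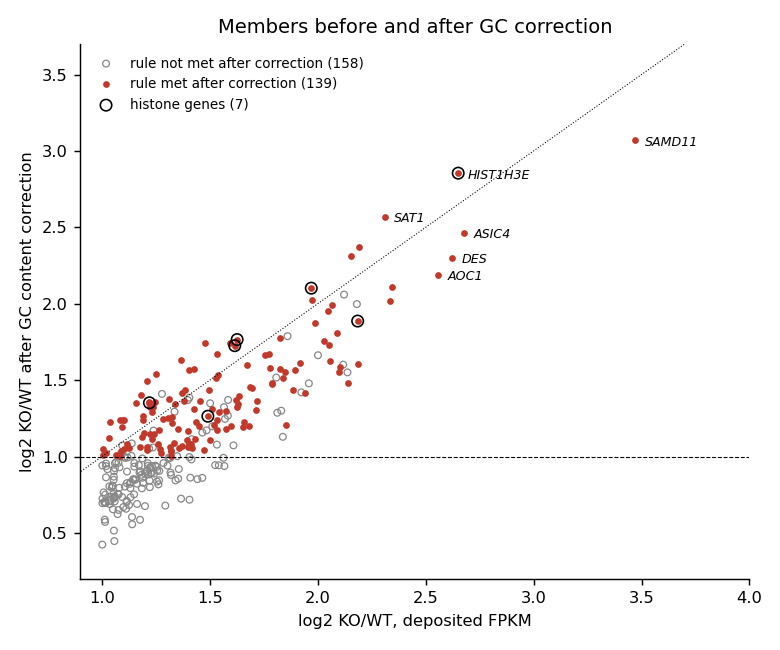
Log2 KO/WT of the 297 genes from the deposited FPKM (x) and after the GC content correction (y); filled red points met the whole rule after the correction (139) and open grey points did not (158), black rings mark the 7 histone genes, the dotted line is equality and the dashed line 2-fold. Most open points sit at the left, near the threshold, while SAMD11, HIST1H3E, SAT1, ASIC4, DES, and AOC1 stay above 2 on the log2 scale.

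The set was spread over the genome unevenly. Chromosome 19, the chromosome with the highest number of them, held 55, which was 6.59% of its 835 eligible genes, against 297 of all 11337. The median GC content of those 835 was 59.9%. The densest stretch of 1 Mb was on chromosome 2, where 7 of 22 eligible genes belonged to the set. It runs from 218781749 to 219538772 (GRCh38 by comparison with GENCODE 29) and holds CYP27A1, WNT6, CDK5R2, DNAJB2, DES, SPEG, and ASIC4. The 15 other eligible genes there had a median log2 KO/WT of 0.37 and a median log2 OE/WT of 0.01 (genes that did not meet the rule). ITGA3, COL1A1, ACSF2, CACNA1G, and ABCC3 lay together on chromosome 17, 5 of 20 eligible genes, and S100A6, S100A3, S100A14, S100A13, and RAB13 on chromosome 1, 5 of 26. After the GC correction 3 of the 7 on chromosome 2, 1 of the 5 on chromosome 17, and 3 of the 5 on chromosome 1 met the rule. These stretches were found by a search for places with many genes of the set.

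Exons overlapping an antisense gene occurred in 87 of the 297 genes (29.3%) and in 39.8% of eligible genes. Whether the counting used strand is not given in the sources used here, so reads from such partners could not be told apart. For CCDC183, AL365205.1, and ORAI3 more than 50% of the exon bases also belonged to another gene on the same strand, and their values are uncertain for that reason.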

How the data were processed

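The 297 genes, the gene lists and the comparisons were chosen with earlier results of these data known. The authors selected poly(A) RNA, sequenced paired-end reads of 150 bases, aligned them with HISAT2 2.0.5 and counted them with featureCounts 1.5.0-p3, according to the Methods and the submitters' processing notes, and deposited 1 table of FPKM per gene. The genome build is not given in the sources used here, and 99.9% of coordinates match GENCODE 29. Groups came from the titles and genotype labels. Whole reads (tolerance 0.01 read, widening in proportion at high counts) were recovered from FPKM and gene length for 100% of values above 0, with 23406222 to 24963691 reads per library, and limma-voom on those reads called 1771 genes in KO against WT. The reads carry no molecular identifiers, so counting errors do not cover amplification.

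Differences were tested with limma 3.58.1 in R 4.3.3 on log2(FPKM + 0.1) over genes with a mean of at least 0.1 FPKM, with a variance trend, all 9 libraries in one fit and the group as the only term. Fold changes are on that scale, which understates the change of low genes. Calls required an adjusted p under 0.05 (Benjamini-Hochberg) together with a log2 difference of more than 1 in size. The rule and limma were also run on simulated reads with a fixed spread and no GC content difference between libraries. Such a run does not show how they behave on the libraries described here. The alternatives were another pseudocount, filter, scaling, GC content and length corrections, limma-voom, a replicate block, and leaving out libraries. The rule was applied with Python 3.11.15 and pandas 2.3.3. For the GC content correction, the median deviation in each of 50 bins was subtracted from each library's log2(FPKM + 0.1).

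Named genes were TNFAIP3, KRT13, RAPGEF3, the 20 largest KO/WT, the 12 highest KO means, the 4 nearest genes on each side of 2-fold, every gene of the set in a list, the 4 lowest and 4 highest OE/KO, and up to 4 other called genes per list. The function groups and families, and other genes named in them, were chosen after their values were seen. Some genes and 1 gene list are not reported here.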

Additional observations from a re-analysis of the deposited data

How the results depend on the processing

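The labels do not say whether replicate numbers pair the libraries. Correlations of deviations between libraries of the same number ran from -0.027 to 0.121 (median 0.025), against -0.131 to 0.072 (median -0.022) for different numbers. Not every library correlated best with its own number. In the set, replicate 3 was most often the highest library of its group, for 168 genes in WT, 208 in KO, and 173 in OE. A pairing by number was therefore not settled. With the replicate block limma called 1557 genes in KO against WT, 2573 in OE against WT, and 542 in OE against KO, and with the GC content correction and the replicate block 1251, 2613, and 623.

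The rule found 297 genes as stated, 146 with a pseudocount of 1 (138 of them in the set), and 148 with a largest group mean of at least 5 FPKM. It found 189 after the GC content correction (139 in the set) and 185 after a further length correction (129 in the set), both added after seeing the data. With 1 library left out it found 239 to 372 genes. Calls in KO against WT numbered 1512 as stated, 472 with a pseudocount of 1, 931 with a mean FPKM of at least 1, and 1184 to 1777 with 1 library left out. Calls in OE against WT numbered 2571, 976 with a pseudocount of 1, 1555 with a mean FPKM of at least 1, and 2258 to 2574 with 1 library left out. Calls in OE against KO numbered 517, 155 with a pseudocount of 1, 235 with no filter, 289 with a mean FPKM of at least 1, and 256 to 621 with 1 library left out. The last count moved by over 1.5 times without 4 libraries, to 310 without KO replicate 1, 324 without KO replicate 3, to 256 without OE replicate 1, and to 268 without OE replicate 2.

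Median-of-ratios scaling gave 298 genes, the deposited values having the same median-of-ratios factor, 1.01, in all 9 libraries. The other alternatives moved none of these counts by over 1.5 times. KO/WT of the 49 genes of the set that the rule names stayed above 1 in every recalculation. With another pseudocount or fewer libraries the rule itself fixes this, as every WT value lies below every KO value. Only the GC content correction could have gone otherwise. The recalculations moved KO/WT by less than the spread between replicates in 387 cases and by more in 54. Of those 54, 26 came with a pseudocount of 1 and 23 with the GC content correction. TNFAIP3 in KO against WT, short of the fold threshold as stated, passed it with limma-voom, with the GC content correction with or without the block, without KO replicate 3 (limma adjusted p = 0.00119), and without WT replicate 1 and KO replicate 3 together. ICAM1, HNF4A, and TWIST1 in KO against WT were no longer called with a pseudocount of 1. The cause of these shifts was not tested. The 3 libraries per group and low FPKM limit the genes of the set under 1 FPKM in WT, of which there were 119.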
